A study of Mus musculus with 8 samples.

Results

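The peptidylarginine deiminase genes of the mouse, Padi1, Padi2, Padi3, Padi4 and Padi6, form a tandem cluster near the distal end of chromosome 4, and their replication timing was read from a genome-wide timing assay in embryonic stem cells. The members were taken by name, and all 5 overlapped measured positions, among 1301 measured protein-coding genes of the chromosome. The control cells were mouse embryonic stem cells (mESC) of the line JM8N4, and the other group carried a Klf4 enhancer deletion. Klf4 encodes a transcription factor of naive pluripotency and ends 85.2 Mb below the cluster on the same chromosome. The labels do not give the coordinates of the deletion, whether it lies on 1 or both alleles, or whether the deletion cells are a single clone. Cells received BrdU, a nucleotide analog that enters newly made DNA, for 2 h, and 40000 cells per fraction were taken from early and from late S phase. The 8 libraries make up 4 timing profiles, 2 per genotype, each from 1 early and 1 late library. The labels do not say whether replicates were separate cultures, so the spread between profiles may be technical. The scores hold no expression, so the cell type could not be checked against markers, and the table holds no read counts, so depth is unknown.

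A timing score compares early with late S-phase DNA at each 5 kb bin and has no unit here, because the log base was not given in the sources used. Higher scores were taken as earlier, since regions with a mean score above 0 held 15.1 protein-coding genes per Mb and regions below 0 held 2.96. The difference between the genotype means, deletion minus control, had a median of 0.16 over all positions. Differences below are given as deposited unless said to be relative to this shift. The profile medians ran from -0.79 to -0.21, and both number 2 profiles lay above both number 1 profiles.

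Peptidylarginine deiminases are calcium-dependent enzymes that convert arginine residues of proteins into citrulline, which removes a positive charge. Padi1 and Padi3 act in epidermis and hair follicles, Padi2 is widely expressed, Padi4 modifies histones in the nucleus and is known from neutrophil extracellular traps, and Padi6 is an oocyte protein needed for early embryos. Early replication generally goes with open, gene-rich chromatin, although many genes that are silent in a cell type also replicate early.

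The cluster spans chromosome 4, 140727355 to 140952586 (mm10), which is 225 kb. From lower to higher coordinates it holds Padi6 at 140727355 to 140742643, Padi4 at 140745508 to 140774239, Padi3 at 140785369 to 140810648, Padi1 at 140812981 to 140845778 and Padi2 at 140906336 to 140952586. The first 4 lie close together on the minus strand, with gaps of 2.86, 11.1 and 2.33 kb between neighbours. Padi2 lies on the plus strand, 60.6 kb beyond Padi1, and their starts face each other across that gap. Of the 46 bins of the cluster, 33 overlapped a Padi gene, and 1 bin was shared by Padi3 and Padi1. Neighbouring bins differed little, with a median step of 0.018 in the cluster, so the 5 scores are not independent measurements.

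The members differ in the sequence before their starts, a feature that the timing scores do not use. For Padi6, Padi3 and Padi1 the start used was the outer end of the gene span given above. For Padi4 and Padi2 it was at 140774203 and 140906360, inside those spans, so part of each upstream sequence lies within the gene as given. In the 250 bases upstream, CpG dinucleotides numbered 17 for Padi2, 3 for Padi4, 3 for Padi3, 1 for Padi6 and 0 for Padi1. The ratio of observed to expected CpG was 0.723 for Padi2, above 65.1% of 1367 such sequences of protein-coding genes on the chromosome, whose median was 0.580. These sequences came from 1067 genes, so some genes contribute several, and shares are over sequences. The ratio was 0.156 for Padi3, 0.113 for Padi4, 0.051 for Padi6 and 0 for Padi1. The ends of that range are shown here from RefSeq (GRCm38.p6), 5′ to 3′ on the strand of the gene, with each CpG in capitals. The Padi1 sequence is chr4:140845779-140846028 on the minus strand and the Padi2 sequence is chr4:140906110-140906359 on the plus strand. The last bases of the Padi2 sequence, with some of its CpG, lie inside the gene span given above.
Padi1 upstream: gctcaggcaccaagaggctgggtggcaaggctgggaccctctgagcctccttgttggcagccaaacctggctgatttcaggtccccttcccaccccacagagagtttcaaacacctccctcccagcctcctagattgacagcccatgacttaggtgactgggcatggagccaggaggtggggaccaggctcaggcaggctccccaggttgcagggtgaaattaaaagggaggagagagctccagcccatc
Padi2 upstream: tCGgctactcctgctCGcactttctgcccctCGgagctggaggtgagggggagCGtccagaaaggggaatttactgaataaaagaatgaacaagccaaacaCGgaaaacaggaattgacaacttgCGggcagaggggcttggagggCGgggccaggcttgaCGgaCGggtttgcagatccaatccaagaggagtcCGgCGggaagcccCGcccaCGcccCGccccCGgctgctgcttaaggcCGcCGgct
A TATA box match (TATAAA, either strand) stood 31 bases before the Padi4 start used here, inside the gene span given above. No other member had this motif, while 9.22% of the 1367 sequences hold it. The letters CCCNCNCCC, a GC-rich pattern of the kind Krüppel-like factors bind, occurred on either strand before Padi6, Padi4 and Padi2 (2 overlapping matches), and in 32.1% of all these sequences. These matches describe letters, and binding was not measured. Both starts lie in early bins. That of the Padi1 start was at 3.04 and 3.58 in the controls and at 3.23 and 3.39 in the deletion profiles, and that of the Padi2 start was at 3.05 and 3.53 and at 3.14 and 3.43 in the same order.

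All 5 genes replicated early in all 4 profiles, as did 79.7% of the measured genes. Their scores over the 4 profiles ranged from 2.53 to 3.55, and the mean scores placed them between percentile 78.1 (Padi6) and percentile 96.6 (Padi1) of the chromosome's genes. The median of the members was 3.17, beside 2.55 over all measured genes. The cluster lay inside an uninterrupted stretch of scores above 0 that was 10.9 Mb long in every profile. Its lower end was 9.10 to 9.13 Mb away, and its higher end was 1.53 to 1.59 Mb away.

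**Figure D1:**
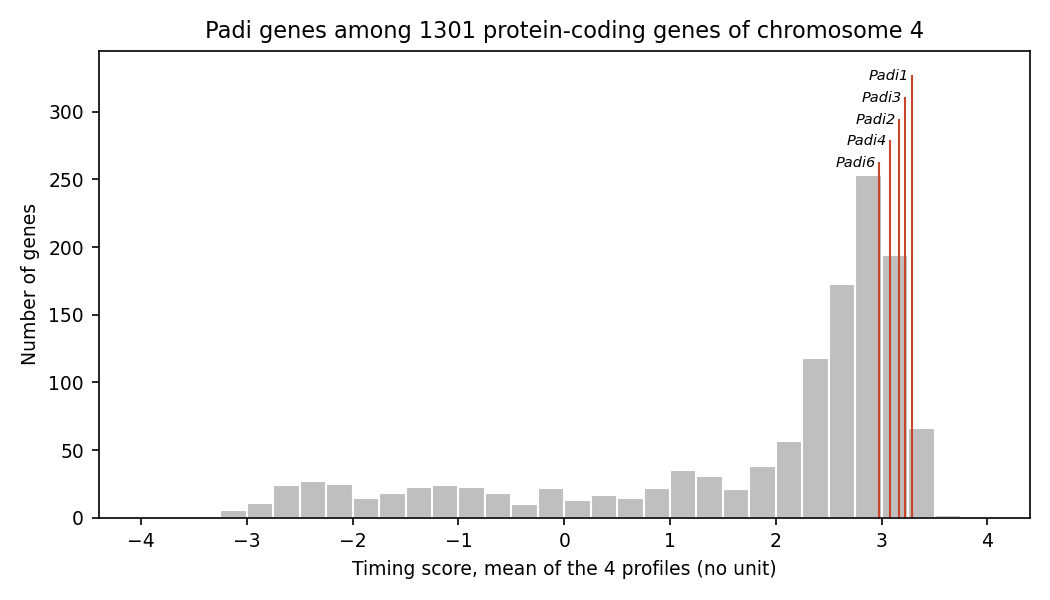
Number of protein-coding genes of chromosome 4 (vertical axis) by timing score, as the mean of the 4 profiles (horizontal axis, no unit, bars 0.25 wide). Red lines mark the Padi genes, from Padi6 at 2.98 to Padi1 at 3.29, all on the early side of the median gene at 2.55.

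Padi1, an enzyme of the epidermis, had the highest mean score of the 5, although it was the earliest member only in control 2 and deletion 1. The control profiles, number 1 first, scored 3.13 and 3.55, and the deletion profiles, in the same order, 3.12 and 3.35. Both deletion profiles lay below the higher control, and the genotypes overlapped. The control mean was 3.34 ± 0.30 and the deletion mean 3.23 ± 0.16 (mean ± SD, 2 profiles per genotype), a difference of -0.11 (SE 0.34), or -0.26 relative to the chromosome. By replicate number the difference was -0.01 in number 1 and -0.20 in number 2.

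Padi3, which acts on structural proteins of the hair follicle, had scores of 3.22 and 3.46 in the control profiles and of 2.90 and 3.32 in the deletion profiles. Deletion 1 was the lowest profile here, and deletion 2 fell between the controls. Its difference of -0.23 (SE 0.34), or -0.39 relative to the chromosome, was the lowest among the members. It was -0.32 in number 1 and -0.14 in number 2, so Padi3 and Padi1 had negative differences within both numbers.

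Padi2, the widely expressed member, had scores of 2.97 and 3.39 in the control profiles and of 2.98 and 3.32 in the deletion profiles. The profiles of each number lay almost on top of each other, with differences of 0.01 in number 1 and -0.06 in number 2. The means were 3.18 ± 0.30 and 3.15 ± 0.24 (mean ± SD, 2 profiles per genotype), and the gap between the numbers was larger than any gap between the genotypes.

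Padi4, the histone-modifying member, had scores of 3.15 and 3.17 in the control profiles and of 2.62 and 3.39 in the deletion profiles. The controls were nearly equal, and the deletion profiles stood on either side of them. The means were 3.16 ± 0.02 and 3.005 ± 0.55 (mean ± SD, 2 profiles per genotype), with differences of -0.53 in number 1 and 0.22 in number 2.

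Padi6, the oocyte member, showed the same split more widely, at 3.02 and 2.93 in the controls and at 2.53 and 3.43 in the deletion profiles. The genotype means were 2.98 ± 0.06 and 2.98 ± 0.64 (mean ± SD, 2 profiles per genotype), a difference of 0.00 (SE 0.36). Deletion 2 scored 0.90 above deletion 1, whereas control 2 differed from control 1 by -0.09. Over all genes the signed difference, number 2 minus number 1, had a median of 0.38 in the deletion profiles and of 0.30 in the controls. The size of the deletion gap at Padi6 was at percentile 88.7 of all genes, and that of the control gap at percentile 13.5.

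**Figure D2:**
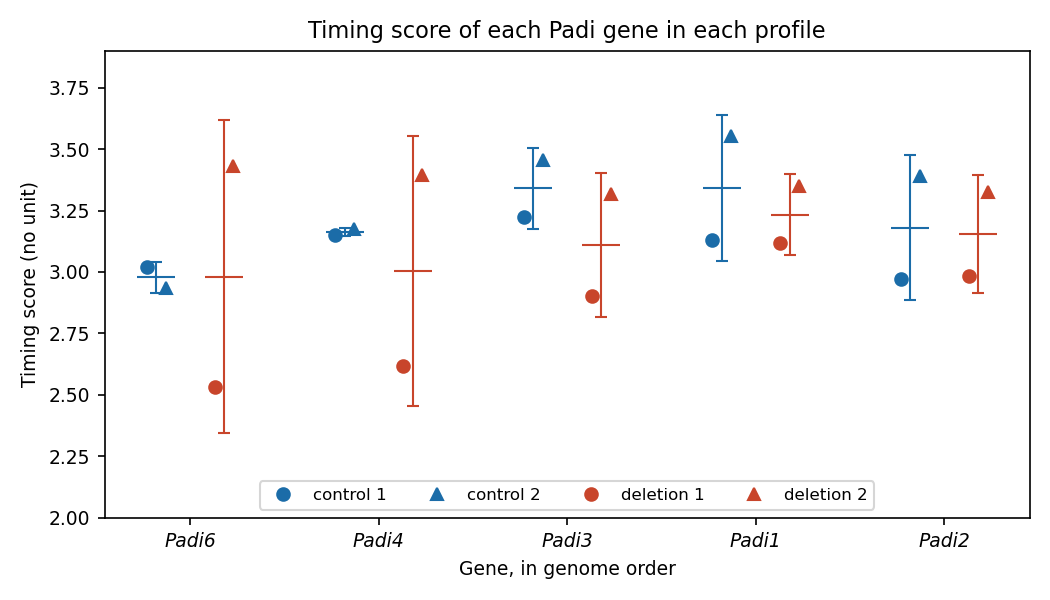
Timing score on the vertical axis (no unit) for the Padi genes in genome order, with 1 point per profile and bars for the genotype mean and SD (n = 2). The deletion profiles lie 0.90 apart at Padi6 and 0.78 apart at Padi4 and come closer towards Padi1, where they lie 0.23 apart. In the controls the gap is widest at Padi1 and Padi2, at 0.42 in each.

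None of the 5 genes was called by limma over all 1301 genes (adjusted p = 0.999 for each, with 0 of the 5 at an unadjusted p under 0.05). Over all genes the percentage called was 0, with 17 genes at an unadjusted p under 0.05. The exact two-sided permutation p over the 4 profiles was 0.667 for Padi3 and Padi1 and 1 for the others, and 0.333 is the smallest p that 2 profiles per genotype allow. None of the 5 had both deletion profiles above or both below the controls, a pattern found in 15.1% and 6.53% of all genes, respectively. The median difference of the members was -0.11, beside 0.14 over all genes, and 4 of the 5 differences were negative, beside 382 of 1301. With median centring or quantile normalization all 5 had negative values, with Padi6 at -0.11 and -0.20 in that order. The Padi genes lie in neighbouring bins, so their 4 negative differences do not count as 4 separate observations. Padi6, Padi4 and Padi2 had differences of opposite sign within the replicate numbers, as did 42% of all genes. A difference that is not called may still exist, since the SE of each gene was at least 0.34 in this fit, which leaves out replicate number. With replicate number in the fit the SE of the members was 0.19 to 0.24, but nothing in the labels pairs the numbers.

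The order of the genes was not fixed. By mean score the order was Padi1, Padi3, Padi2, Padi4 and Padi6, and no neighbours in it differed by more than the SD of their difference over the 4 profiles. Padi1 exceeded Padi3 by 0.06 (SD 0.13), Padi3 exceeded Padi2 by 0.06 (SD 0.14), Padi2 exceeded Padi4 by 0.08 (SD 0.25) and Padi4 exceeded Padi6 by 0.10 (SD 0.12). Padi1 lay above Padi2 in 4 of 4 profiles, by 0.12 on average (SD 0.07), and this was the only one of 10 pairs with the same sign in every profile (exact sign-flip p = 0.125, the smallest that 4 profiles allow, and 0.625 adjusted over the 10 pairs). Padi6 was the latest member in control 2 and deletion 1 and the earliest in deletion 2. The 5 genes spanned 0.25 in control 1, 0.62 in control 2, 0.59 in deletion 1 and 0.12 in deletion 2.

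Within the locus, the cluster held the highest score of the 1.23 Mb that it forms with 500 kb on either side, in each of the 4 profiles. These peaks were 3.23 at 140790000 in control 1, 3.60 at 140865000 in control 2, 3.27 at 140870000 in deletion 1 and 3.46 at 140890000 in deletion 2. The first of them lies in Padi3 and the others between Padi1 and Padi2. Over the whole cluster the controls scored 3.09 and 3.40 and the deletion profiles 2.96 and 3.37, which ranked it 14 from the earliest among 680 windows of its length. The cluster exceeded the mean of its flanks by 0.61 and 0.84 in the controls and by 0.51 and 0.88 in the deletion profiles. This was 0.71 ± 0.18 over the 4 profiles (SD), with the cluster higher in 4 of 4 (exact two-sided sign-flip p = 0.125, the smallest possible). Of 678 windows measured the same way, 80.5% had a smaller excess over their flanks. The excess was smaller against flanks of 250 kb, at 0.43 in control and 0.34 in deletion cells.

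**Figure D3:**
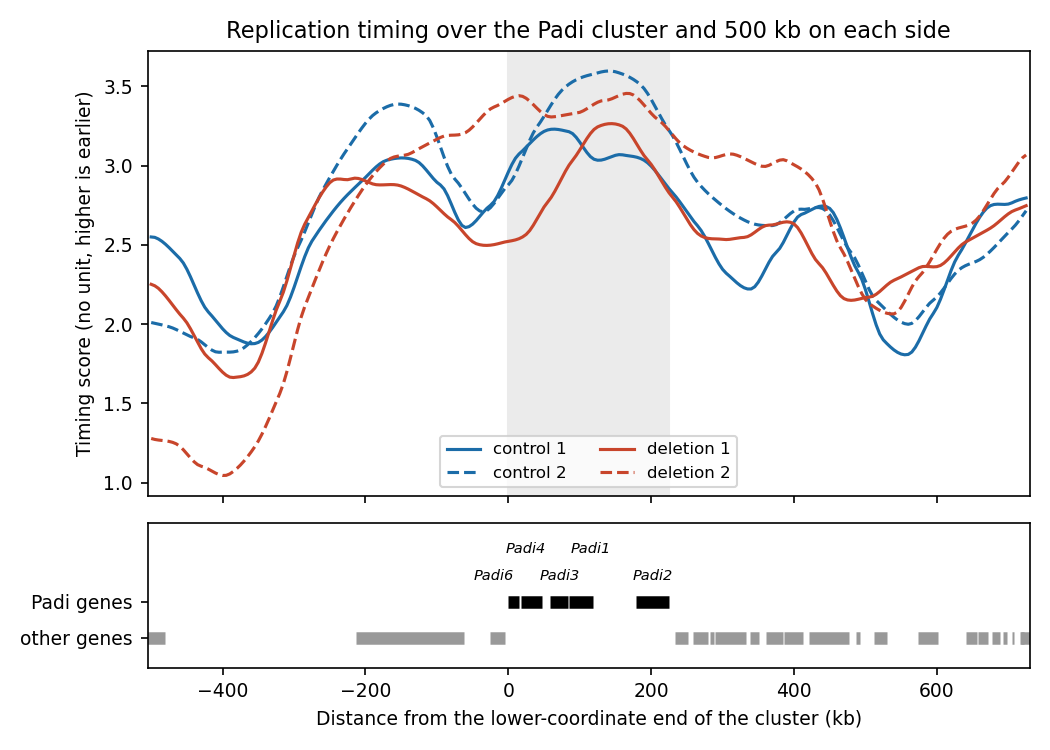
Timing score (vertical axis, no unit) of the 4 profiles against distance from the lower-coordinate end of the cluster in kb, with the cluster shaded and genes drawn below. Each profile peaks inside the cluster, between 3.23 and 3.60, and deletion 1 stays near its lowest cluster score, 2.52, over Padi6.

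Along the cluster the genotype difference ran in opposite directions within the numbers. In number 1 the deletion profile started 0.44 below control at the Padi6 end, reached -0.55 at 140750000 in Padi4, crossed to positive values at 140830000 in Padi1 and peaked at 0.22 at 140860000, and it was slightly negative again from 140935000 in Padi2. In number 2 it started 0.54 above control, crossed to negative values at 140780000, between Padi4 and Padi3, and reached -0.22 at 140825000 in Padi1. The signs were opposite at 32 of the 46 positions of the cluster, beside 37.4% of all positions of the chromosome, and these positions are neighbours with smoothly changing scores. At 0 of the 46 did both deletion profiles lie above both controls, and at 0 below, beside 16% and 5.86% of all positions. The cluster's mean difference was -0.08 (SE 0.40), with -0.12 in number 1 and -0.03 in number 2, and was not called (limma, adjusted p = 0.998 over 680 windows, 0% of which were called and 8 of which had an unadjusted p under 0.05). With control replicate 2 left out it was 0.08, and with deletion replicate 1 left out 0.13, comparisons in which the numbers are uneven between genotypes.

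**Figure D4:**
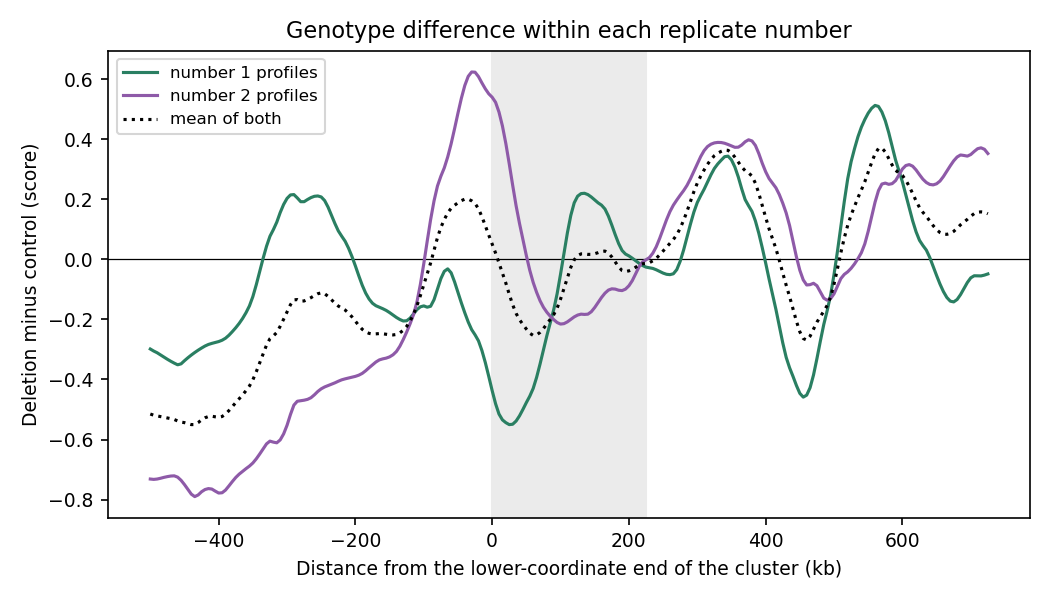
Deletion minus control score (vertical axis) within the number 1 profiles, within the number 2 profiles and as their mean, against distance from the lower-coordinate end of the cluster in kb, with the cluster shaded. At the Padi6 end the curves stand at -0.44 and 0.54, and they meet near 0 at the Padi2 end, at -0.03 and -0.00.

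The 500 kb on the lower side had scores of 2.54 and 2.60 in the control profiles and of 2.42 and 2.26 in the deletion profiles, so both deletion profiles lay below both controls. This gave a difference of -0.23 (SE 0.36), or -0.39 after the chromosome's shift is removed, with -0.12 in number 1 and -0.34 in number 2. It was -0.07 with a flank of 250 kb, -0.15 without deletion replicate 2 and -0.41 with quantile normalization. It was not called (limma, adjusted p = 0.996 over 305 windows, 0% of which were called and 1 of which had an unadjusted p under 0.05; exact permutation p = 0.333, the smallest possible). At 27 of its 100 positions both deletion profiles lay below both controls, beside 5.86% of positions on the chromosome. They are unbroken runs of neighbouring bins, 140290000 to 140385000 and 140525000 to 140555000, and do not count as separate observations. The lowest mean difference was -0.55 at 140285000, outside those runs, where deletion 1 lay above control 2, at 1.93 against 1.91. The 500 kb on the higher side had scores of 2.42 and 2.53 in the control profiles and of 2.48 and 2.73 in the deletion profiles, a difference of 0.13 (SE 0.36) that was -0.04 after quantile normalization and was not called (limma, adjusted p = 0.996). It was 0.02 after median centring and 0.006 with a flank of 1000 kb. Leaving out deletion replicate 2, deletion replicate 1 or control replicate 1 gave 0.004, 0.25 and 0.08, respectively. On this side both deletion profiles lay above both controls at 25 of 100 positions and below both at 11. The shares over all positions of the chromosome were 16% and 5.86%, and these positions too are neighbours with smoothly changing scores.

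The locus was gene-rich, at 21.2 protein-coding genes per Mb with the flanks, beside 8.49 over the chromosome. All 21 neighbours were early in every profile, with mean scores between 2.10 and 3.005, and 0 passed the test (limma), with 0 at an unadjusted p under 0.05. Their median difference was 0.14, equal to that over all genes at this precision. It mostly reflects the higher side, where 18 of them lie with a median of 0.14, while the 3 on the lower side had a median of -0.14. Rcc2, which encodes a regulator of mitosis and stands next to Padi6, had scores of 2.82 and 2.79 in the control profiles and of 2.51 and 3.38 in the deletion profiles, the same split as Padi6. Sdhb, a succinate dehydrogenase subunit gene next to Padi2, had scores of 2.76 and 3.08 in the control profiles and of 2.72 and 3.14 in the deletion profiles and, like Padi2, separated by number and not by genotype. Of the 21, 1 had both deletion profiles above both controls and 1 had both below, beside 15.1% and 6.53% of all genes. The first was Epha2, an ephrin receptor gene, at 2.01 and 2.11 in the controls and at 2.36 and 2.38 in the deletion profiles. The second was Cplane2, a ciliogenesis gene, at 2.33 and 2.37 in the controls and at 2.16 and 2.24 in the deletion profiles.

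Among 1275 genes outside the locus, the 5 whose 4 scores were nearest to the mean of the Padi genes (3.10 and 3.30 in the controls, 2.83 and 3.36 in the deletion profiles) by Euclidean distance were Csf3r, Trim63, Cnr2, Kdm1a and Dnajc16, at distances of 0.144 to 0.204. Csf3r, the receptor gene for granulocyte colony-stimulating factor, had scores of 2.97 and 3.27 in the control profiles and of 2.79 and 3.34 in the deletion profiles, and lies 14.7 Mb from the cluster. Trim63, Cnr2, Kdm1a and Dnajc16 lie 6.40, 4.81, 4.12 and 0.81 Mb away, inside the same early stretch as the cluster. Likeness over 4 profiles of 1 chromosome says only that their timing was similar.

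Genes of the chromosome that act where a Padi protein acts were also read, and 0 of them passed the test by limma, with 0 at an unadjusted p under 0.05. The epidermal list held 5 measured genes of 5, all early, with a median score of 2.57 and a median difference of 0.09. In it the transcription factor gene Grhl3 was highest, at 2.98 ± 0.39 in control profiles and 3.01 ± 0.35 in deletion profiles (mean ± SD, 2 profiles per genotype). The myeloid list held 6 of 6, all early, with a median score of 2.87 and a median difference of 0.06, from the Src-family kinase gene Fgr at 1.91 to Csf3r at 3.09 (mean of the 4 profiles). The oocyte and early embryo list held 6 measured genes of 7, of which 3 were early and 3 late in every profile. Its differences ran from 0.08 to 0.57, all 6 positive, as were 919 of 1301 over all genes. Only Mos and Zfp352 had both deletion profiles above both controls, beside 15.1% of all genes. Relative to the chromosome's shift, their differences were -0.02 and 0.42. Mos, a kinase gene of the oocyte, scored 1.57 ± 0.05 in control profiles and 1.71 ± 0.01 in deletion profiles, whereas Zfp352, at -2.69 ± 0.15 and -2.12 ± 0.25, was late (mean ± SD, 2 profiles per genotype). Padi6, the oocyte member of the cluster, had a higher mean score than each of these 6 genes, the highest of which was the connexin gene Gja4 at 2.71, but in deletion 1 it lay below Gja4, at 2.53 against 2.60. Of the PAD4 chromatin partners, the demethylase gene Kdm1a scored 3.20 ± 0.21 and 3.15 ± 0.22, and the deacetylase gene Hdac1 2.37 ± 0.23 and 2.29 ± 0.10 (mean ± SD, 2 profiles per genotype).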

How the data were processed

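The authors deposited 1 table of replication timing scores for chromosome 4, scaled to a common interquartile range per the file headers and name (4.60 in each profile). Bowtie2, SAMtools, bedtools and mm10 are named in the submitters' processing notes, without versions; how the scores were smoothed was not stated. The table lists 31301 positions, of which 639 were empty throughout and 3 only in deletion cells, which left 30659. A position was taken as the start of its 5 kb bin, and gene scores are means over overlapping bins. Gene positions and promoters came from RefSeq tables of GRCm38.p6, the same build as mm10. Of 1328 protein-coding genes, 1301 had a bin.

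Profiles were matched to genotypes by column name. The tests were limma 3.58.1 in R 4.3.3 (lmFit and eBayes, two-sided, Benjamini-Hochberg adjustment, threshold 0.05) over all genes, positions, windows of cluster length and 500 kb windows with at least 50% of their bins measured, and exact permutation over profiles. An SE rests on the spread of each feature, moderated by limma towards a value shared by all features. The tests were checked on simulated profiles. Planned as tests on log ratios, they ran on the scores as deposited. Protein sequences were not analysed here. Alternatives were other scalings, bin readings, gene windows, flank sizes, limma's trend and robust options, a minimum of 5 bins, leaving out each profile and the replicate number as a block.

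Genes named were the members, the protein-coding genes within 500 kb, the 5 nearest by profile outside and the list members; those with values were picked from these. The members and lists were chosen with earlier results of these data known.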

Additional observations from a re-analysis of the deposited data

How the results depend on the processing

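No Padi gene was called under any alternative run, and neither were the cluster and its flanks. The sign of a member's difference was less stable. For Padi6, 0.00 as reported, it was -0.11 after median centring and after own median and interquartile range, -0.20 after quantile normalization and -0.029 with positions read as bin ends. Leaving out 1 profile at a time gave ranges of -0.45 to 0.45 for Padi6, -0.55 to 0.23 for Padi4, -0.44 to -0.03 for Padi3, -0.32 to 0.10 for Padi1, -0.23 to 0.18 for Padi2, -0.28 to 0.13 for the cluster, -0.31 to -0.15 for the lower flank, 0.004 to 0.25 for the higher flank and -0.21 to 0.16 for the genotype difference of the cluster's excess over its flanks (-0.03 with all profiles). Such fits mix genotype with replicate number and assume that a lone profile varies like the other genotype. The sign changed without control replicate 2 for Padi6 (-0.04), Padi1 (0.10), Padi2 (0.18) and the cluster (0.08), with the excess difference at 0.09. Without deletion replicate 1 it changed for Padi4 (0.23), Padi1 (0.01), Padi2 (0.14) and the cluster (0.13), with the excess difference at 0.16. Without deletion replicate 2 it changed for Padi6 (-0.45). Calls then ranged from 0 to 4 among genes, 0 to 2 among cluster-length windows and 0 to 1 among 500 kb windows. The excess was 0.43 in control and 0.34 in deletion cells with flanks of 250 kb, and its genotype difference was 0.023 with flanks of 1000 kb. The higher flank's difference was -0.037 after quantile normalization.

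With the replicate block, limma called 0 genes, 28 of 680 cluster-length windows, 29 of 305 windows of 500 kb and 785 of 30659 positions, none in the cluster or its flanks, against 0 in each fit without it. Adjusted p-values of the members with the block were 0.631 to 0.997. Deviations of same-numbered profiles from their genotype means had a correlation of 0.637 across positions, but nothing in the labels pairs the numbers. With 2 profiles per genotype and unknown depth, differences of the size seen at the Padi genes cannot be told from replicate spread.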
